A study of Mus musculus with 2 samples.

Results

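The 10 genes of the bone morphogenetic protein (BMP) pathway described here in cells labelled as lung vascular cells of old and young mice were the ligand genes Bmp2, Bmp4 and Bmp6, the extracellular modulator gene Bmper, the inhibitory Smad genes Smad6 and Smad7, and the Id genes Id1, Id2, Id3 and Id4. The members were all probe sets whose only gene symbol in the platform annotation was 1 of these 10 names, which gave 15 probe sets among 34945 with a single symbol, and 10 of 18193 genes. Every member had at least 1 probe set, and 0 probe sets that name several genes included a member. The genes were picked with their values on these arrays already known, so the values below are a description and carry no test.

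RNA came from flow-sorted vascular cells of C57BL/6J mice whose left lung lobe had been removed, and the cells were taken from the right lobes that remained. The old group and the young group had 1 one-colour Affymetrix array each, and both groups had undergone the same operation. The design asks how gene expression in these cells differs with age after pneumonectomy. The age of the mice in each group, the interval after surgery, the sorting markers and the number of animals per array are not stated in the labels, and unoperated mice were not analysed here. With 1 array per group there is no spread between replicates, so age, animal, array and the make-up of the sorted cells cannot be told apart. The old array goes against its lung label in part: it had strong signal for genes that define liver sinusoidal endothelium and hepatocytes, such as Clec4g (41144 on the old array, 792 on the young), Stab2 (24882, 787) and Alb (8900, and 20.5 on the young array, under the median signal). Of 11 lung capillary markers on the array, 3, Car4 among them, were under the median signal on both arrays. Some of the others had strong signal, such as Ednrb (1280 on the old array, 11300 on the young) and Hpgd (11154, and 26.0 on the young array), and also Kitl and Tbx2 on the old array. Foxf1 (101 on the old array, 152 on the young), Scn7a (77.0, 24.6) and Tmem100 (3.05, 80.3) had low signal. Of 10 lung epithelial markers, 6, Sftpc and Nkx2-1 among them, were under the median signal on both. The young array in turn had strong signal for lymphatic markers, such as Mmrn1 (74.6 on the old array, 10039 on the young). Of 7 such markers, 5 were past 2-fold toward the young array and 0 toward the old. Every ratio below may therefore compare different cell types or tissues as well as different ages, and the identity of neither sample was tested. In such bulk RNA, fewer cells of a type and less RNA per cell cannot be told apart either.

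BMPs are secreted ligands of the transforming growth factor beta superfamily. They bind pairs of type I and type II receptors, which phosphorylate Smad1, Smad5 and Smad9, and these enter the nucleus with Smad4. The Id genes and the inhibitory Smad genes are among the most direct targets: Id proteins bind E proteins and keep them off DNA, and Smad6 and Smad7 feed back to dampen signalling. In endothelium the pathway acts in vessel growth and quiescence.

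The values are MAS5 intensities, here called signal, after scaling both arrays to a median log2 ratio of 0. Ratios are old minus young throughout. The floor, 73.7 signal units, is the higher of both array medians, and a value below it was set to the floor, so that a gene below the floor on 1 array has a lower bound, written "at least". Of 12105 genes at or above the floor on at least 1 array, 16% were higher on the old array by 2-fold or more and 11.3% on the young array. The number of arrays limits the precision, and the only repeated measure was how far probe sets of 1 gene differed in log2 ratio, an SD of 0.42 over 4514 genes, which describes probes and not mice. All 10 pan-endothelial markers were above the floor on both arrays, whereas markers of liver, leukocyte and stromal cells had higher signal on the old array, with values given after those of the members.

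A 2-fold or larger excess on the old array was found for 9 of the 10 members, and Bmp4 had one on the young array. The background share, 16% toward the old side, stands beside these 9 of 10 only for scale, because the members were chosen on the same contrast. On the old side 7 members reached 8-fold, a size reached by 3.82% of all measured genes. The median log2 ratio of the members was 3.72, and that of all measured genes was 0.03. At the level of probe sets, 14 of 15 pointed to the old array, and all 14 did so by 2-fold or more, against 14.2% of all measured probe sets with a single gene symbol.

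**Figure D1:**
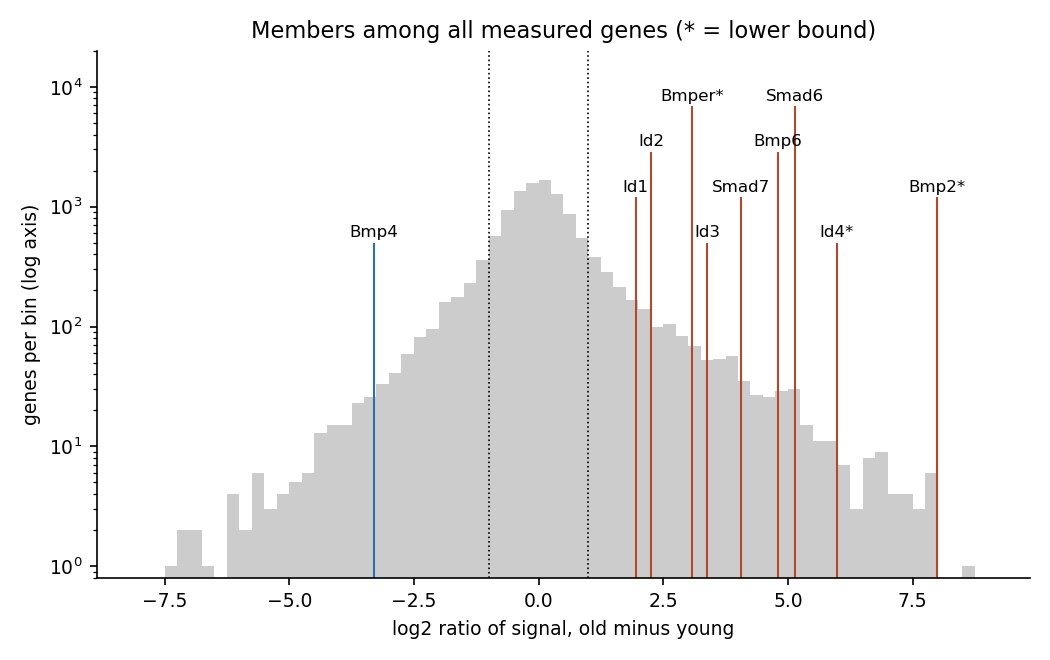
Histogram of the log2 ratio (old minus young, horizontal axis) of 12105 measured genes, with the number of genes per bin on a log axis. Vertical lines mark the 10 members (red, higher on the old array; blue, higher on the young array; an asterisk marks a lower bound) and dotted lines mark 2-fold: 9 members lie beyond the right dotted line and Bmp4, at -3.31, beyond the left.

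The ligand genes did not share a direction. Bmp2 encodes a ligand that is also made by sinusoidal endothelium of the liver, and its probe set 1423635_at read 18710 signal units on the old array and 5.68 on the young. The young value lay below the floor, so the excess of Bmp2 on the old array was at least 254-fold (log2 ratio at least 7.99), the widest gap among the members. Bmp6, a ligand known for driving hepcidin expression in the liver, read 4926 on the old array and 178 on the young (1450759_at). Both values were above the floor, and the difference was 27.7-fold toward the old array (log2 ratio 4.79). Among the 10004 genes above the floor on both arrays, Bmp6 ranked 50 in order of ratio toward the old side.

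Bmp4 was the only member on the young side. It encodes a ligand that patterns the developing lung and is also made by vascular cells. Its probe set 1422912_at gave 354 on the old array and 3507 on the young array. Both values were measured above the floor, and the difference was 9.91-fold toward the young array (log2 ratio -3.31), rank 73 in that direction among the 10004 genes. Each of these 3 ligand genes rests on a single probe set, so no second probe set bears on any of them.

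Bmper encodes a secreted BMP-binding protein of endothelium that can dampen or promote signalling. Its probe set 1429273_at read 626 on the old array and 21.6 on the young. The young value was below the floor, and the excess on the old array was at least 8.49-fold (log2 ratio at least 3.09). With the floor raised to the 75th percentile of signal, the log2 ratio of Bmper was at least 0.36, and with no filter it was 4.86. Bmper was the only member with a value under 2-fold under any alternative tried.

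**Figure D2:**
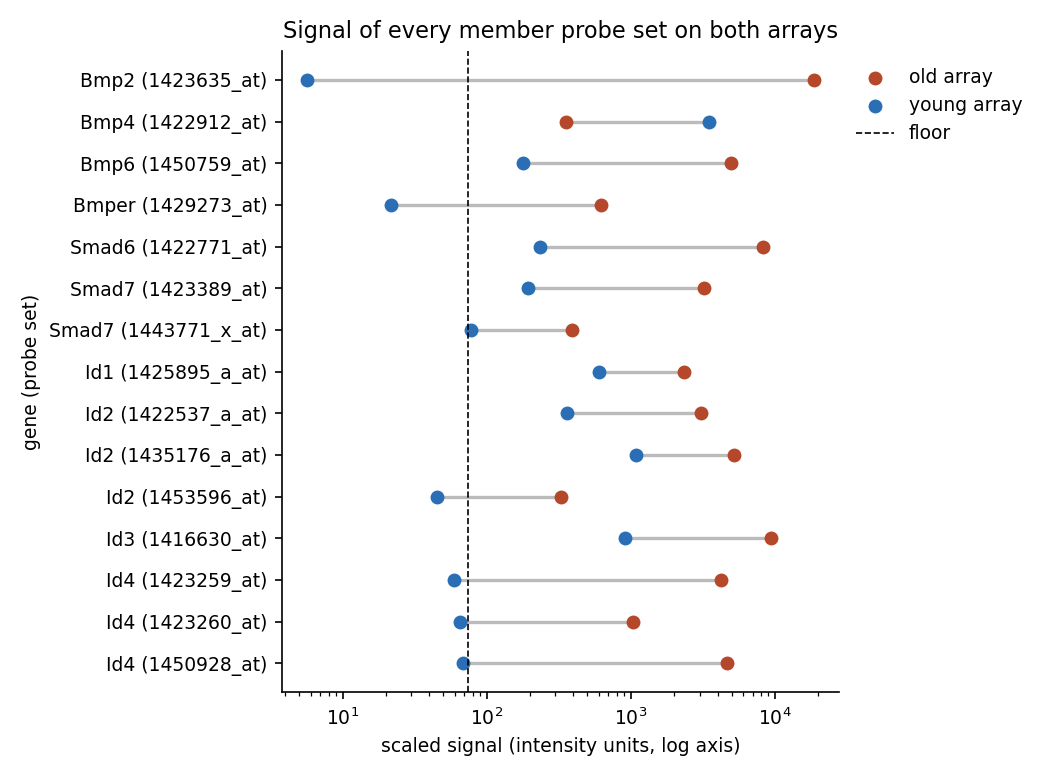
Scaled signal of each of the 15 member probe sets (rows) on the old array (red) and the young array (blue), on a log axis in intensity units, with the floor of 73.7 as a dashed line. Values are to be compared within a row; the red point lies to the right in 14 rows and to the left in the Bmp4 row, and 6 blue points lie below the floor.

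The inhibitory Smads were both higher on the old array. Smad6, which blocks BMP signalling preferentially, gave 8236 on the old array and 234 on the young array (1422771_at). This was a 35.2-fold difference with both values above the floor (log2 ratio 5.14), and Smad6 ranked 34 of the 10004 genes toward the old side, the highest rank of any member measured on both arrays. Smad7, which restrains both BMP and transforming growth factor beta receptors, had 2 probe sets. The probe set 1423389_at gave 3200 on the old array and 193 on the young array, a 16.6-fold difference (log2 ratio 4.05). The other, 1443771_x_at, is of a kind whose probes can match further transcripts, and gave 391 against 77.3, a 5.06-fold difference (log2 ratio 2.34). The Smad7 probe sets thus had the same direction and a gap in size that was wider than the usual SD of 0.42 between probe sets of a gene.

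All 4 Id genes were higher on the old array, by amounts that ranged from 3.86-fold for Id1 to at least 63.3-fold for Id4. Their proteins have a helix-loop-helix domain without the basic region that contacts DNA. Id1, the classical readout of BMP receptor activity in endothelium, gave 2324 on the old array and 601 on the young array (1425895_a_at). Its log2 ratio of 1.95 was the smallest in size among the members, and it ranked 482 of 10004 toward the old side. Id3, which is often induced together with Id1, gave 9467 against 908 (1416630_at). That was a 10.4-fold difference (log2 ratio 3.38), rank 160.

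Id2, which is also induced by signals other than BMP, had 3 probe sets that all lay on the old side. The one with the highest mean signal, 1435176_a_at, gave 5195 on the old array and 1086 on the young array, a 4.78-fold difference (log2 ratio 2.26). The probe set 1422537_a_at gave 3058 against 360, which was 8.50-fold (log2 ratio 3.09). The third, 1453596_at, gave 330.4 against 45.1, below the floor, which was at least 4.48-fold. The probe sets of Id2 with both values above the floor had log2 ratios of 2.26 and 3.09, and the third has a lower bound of 2.16.

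Id4, the Id gene with the most restricted expression in adult tissues, was below the floor on the young array in all 3 of its probe sets. On the old array these gave 4668 (1450928_at), 4197 (1423259_at) and 1032 (1423260_at), and on the young array 68.8, 59.7 and 65.4. The corresponding lower bounds were 63.3-fold, 56.9-fold and 14.0-fold. The young value of 1450928_at lay just under the floor of 73.7 and that of 1423259_at lay furthest under it, so all 3 folds remain lower bounds.

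The stretches before the transcription start are shown for Id2 and Id4 because, among the old-side members found in the RefSeq promoter table (GRCm38.p6), these held the palindrome GGCGCC, a core known from BMP-responsive elements bound by Smad proteins. The table held 7 members: Bmp4, Bmp6, Bmper, Smad6, Id2, Id3 and Id4. It did not list Bmp2, Id1 or Smad7. Each line gives the 250 bases before the start, 5′ to 3′ on the strand of the gene, with the palindrome in capitals. The Id2 stretch is chr12:25096093-25096342 on the minus strand, and the Id4 stretch is chr13:48260866-48261115 on the plus strand.
Id2: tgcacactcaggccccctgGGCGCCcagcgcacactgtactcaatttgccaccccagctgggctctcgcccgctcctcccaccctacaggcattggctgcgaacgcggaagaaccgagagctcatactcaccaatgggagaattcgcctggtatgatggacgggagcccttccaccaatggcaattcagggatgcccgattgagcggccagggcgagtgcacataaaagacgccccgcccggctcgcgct
Id4: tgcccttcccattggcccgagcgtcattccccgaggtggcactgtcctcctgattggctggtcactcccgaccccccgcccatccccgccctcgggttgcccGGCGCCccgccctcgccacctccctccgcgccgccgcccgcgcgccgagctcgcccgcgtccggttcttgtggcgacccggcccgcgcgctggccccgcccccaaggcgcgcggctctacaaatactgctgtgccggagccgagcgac

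The palindrome began at position -231 relative to the start of Id2 and at -148 relative to that of Id4. Searched on both strands, GGCGCC was found in 2 of 7 member promoters and in 9.59% of the 32851 stretches of the same length in the table. The Id4 stretch was 75.6% G and C and the Id2 stretch 62.8%, against a median of 52.4% over all stretches; the part of base composition in these matches was not tested. The shorter Smad-binding core GTCT was found in 6 of 7 members (not in Id4) and in 82.9% of all stretches. The composite of GGCGCC with GTCT 5 bases downstream was found in 0 of 7 members and in 0.07% of all stretches. The E-box CANNTG, the site of the E proteins that Id proteins sequester, was found in Id2, Bmp6 and Bmp4, 3 of 7, and in 66.2% of all stretches. A match describes letters in this window and not a bound site.

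The rest of the pathway was described from lists of 64 other genes, of which 60 were on the array and 39 were measured above the floor on at least 1 array. Of these 39, 8 exceeded 2-fold toward the old array, 5 toward the young array, and the other 26 did not reach 2-fold. Their median log2 ratio was 0.38, and -0.07 when the arrays were scaled to the pan-endothelial markers. The 16% and 11.3% of all measured genes on the old and young sides are the background for these counts.

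Receptor genes lay on the old side or within 2-fold. Of 9 measured receptors and co-receptors, 4 reached 2-fold toward the old array and 0 toward the young array. Bmpr2, the type II receptor gene whose loss causes heritable pulmonary arterial hypertension, gave 12709 on the old array and 4694 on the young array, a 2.71-fold difference. Eng, the endothelial co-receptor endoglin, gave 22308 against 8777, which was 2.54-fold. Acvr1, a type I receptor gene, was 2.66-fold higher on the old array (3633 against 1368). These 3 excesses were close to the threshold: with scaling to the pan-endothelial markers the log2 ratios were 0.99 for Bmpr2, 0.90 for Eng and 0.96 for Acvr1, and Eng was also under 2-fold with quantile normalization (0.78) and loess (0.93).

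Bmpr1a, the other type I receptor gene on the old side, gave 963 against 30.1, below the floor, so that its excess on the old array was at least 13.1-fold. Its 4 measured probe sets spread widely, with log2 ratios from 1.02 to 3.71, and the ratio was 0.98 with the floor at the 75th percentile. Acvrl1, the type I receptor gene of endothelium for circulating BMP ligands, gave 853 against 747, a log2 ratio of 0.19. Its second probe set had a log2 ratio of -1.80, so the probe sets of Acvrl1 disagreed in direction.

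The signal-carrying Smads did not share the old-side excess of Smad6 and Smad7. Of 5 measured receptor-activated and common Smad genes, 0 reached 2-fold toward the old array. Smad5 was 2.43-fold higher on the young array (693 on the old array against 1681). Smad1 gave 5250 on the old array and 9420 on the young array (log2 ratio -0.84), and it passed 2-fold toward the young side with quantile normalization (-1.17), loess (-1.06), the mean over its probe sets (-1.02) and pan-endothelial scaling (-1.29). Smad4, the common partner, gave 6743 against 4817 (log2 ratio 0.49). Smad9 was below the floor on both arrays. The 4 Smad regulators, the ubiquitin ligase genes Smurf1 and Smurf2 and the corepressor genes Ski and Skil, were all within 2-fold, with log2 ratios from 0.31 to 0.97.

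Extracellular antagonists and modulators split. Of 9 measured genes, 4 reached 2-fold toward the young array and 2 toward the old array. Fst, encoding follistatin, which binds activins and some BMPs, gave 119 on the old array and 4117 on the young array. This 34.7-fold difference ranked 11 toward the young side among the 10004 genes, and the 2 probe sets of Fst had log2 ratios of -5.16 and -5.12. Tll1, a tolloid-like protease that cleaves the antagonist chordin, gave 32.6, below the floor, against 2650 and was at least 36.0-fold higher on the young array. Twsg1, which modulates BMP binding together with chordin, was 2.98-fold higher on the young array (842 against 2509). Fstl1, which can bind Bmp4, was 2.30-fold higher there (6000 against 13798). Fst, Tll1, Twsg1 and Fstl1 were therefore on the same side as Bmp4.

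On the old side were Mgp, a matrix protein that binds BMPs in vessel walls, with 504 against 35.3, at least 6.84-fold, and Htra1, a serine protease that restrains the ligand family, with 2908 against 733, or 3.97-fold. Mgp had a log2 ratio of at least 0.04 with the floor at the 75th percentile, which lay close to its old signal, and of 3.84 with no filter. The classical antagonist genes Nog, Chrd and Grem1 did not reach the floor on either array and have no ratio here. Among 3 measured further ligand genes, 0 reached 2-fold against the floor. Bmp5 gave 107.1 on the old array and 5.84 on the young array, and Gdf2, a circulating ligand for endothelium, gave 107.5 against 67.5. Both young values were below the floor, so their folds, 1.45 and 1.46, are lower bounds that leave a larger difference possible. With no filter, 3 of 9 further ligand genes passed 2-fold toward the old array, against 23.6% of all genes. These were Bmp5 and, below the floor on both arrays, Bmp8a and Bmp10.

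Other genes known as BMP targets did not follow the Id genes as a group. Of 6 measured targets, 2 reached 2-fold toward the old array and 0 toward the young array, and both were hepcidin genes, which hepatocytes express in response to BMP ligands from neighbouring endothelium. Tmem100, Msx1 and Dlx2 each had 1 value below the floor and the other close above it. Their ratios against this floor could therefore not reach 2-fold. With no filter, 3 of 10 targets passed 2-fold toward the old array and 2 toward the young array. The shares of all genes were then 23.6% and 14%. Hamp gave 526 on the old array and 53.9 on the young array, at least 7.14-fold. Its log2 ratio was at least 0.11 with the floor at the 75th percentile and 3.29 with no filter. Hamp2 gave 313 against 28.0, at least 4.25-fold. The 2 genes are near copies, and their probes may not separate them. Hepatocyte markers moved the same way, with 10 of 10 on the old side, and their part in the hepcidin signal was not tested. Of the endothelial targets, Hey1 had a log2 ratio of -0.71, Tmem100 gave 3.05 on the old array and 80.3 on the young array, just above the floor, and Atoh8 and Hey2 were below the floor on both arrays.

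The E proteins, the binding partners of Id proteins, were measured for all 3 genes and lay within 2-fold. Tcf4 gave 6508 against 5004 (log2 ratio 0.38, with probe sets from -0.19 to 0.38), and -0.07 with scaling to the pan-endothelial markers. Tcf3 and Tcf12 had log2 ratios of 0.49 and 0.24, and the 4 measured probe sets of Tcf12 ran from -0.38 to 1.27.

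**Figure D3:**
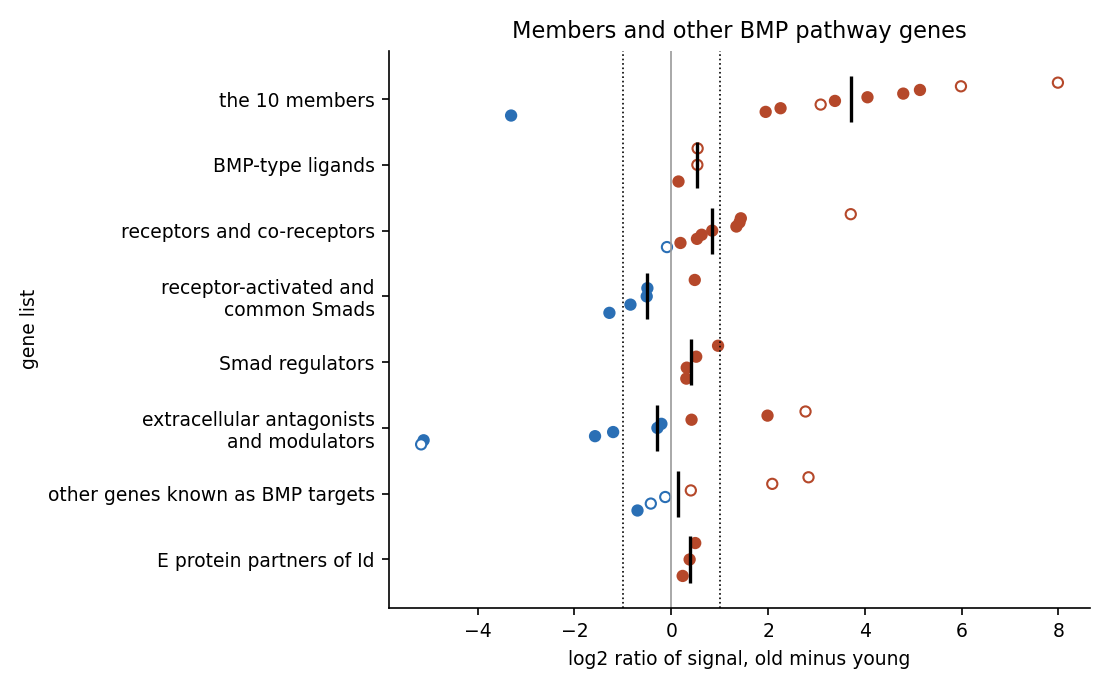
Log2 ratio (old minus young) of each measured gene in the members and in 7 lists of other pathway genes. Filled points are above the floor on both arrays, open points are lower bounds, black bars are medians and dotted lines mark 2-fold; the members have a median of 3.72, while the receptor-activated and common Smads have one of -0.51 and the antagonists and modulators range from -5.17 to 2.77.

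The members' old-side excess stood beside large differences in markers of other cell types. Pan-endothelial markers had a median log2 ratio of 0.45, with 3 of 10 genes past 2-fold toward the old array and 1 toward the young array, and a summed signal of 115078 on the old array and 77829 on the young array. That median, which the scaling to these markers set to 0, depended on the processing. It was 0.45 with no filter, 0.32 with the deposited values, 0.11 with loess, -0.006 with quantile normalization and -0.004 with the mean over probe sets. The probe sets of Cdh5, Erg and Egfl7 differed in direction. Liver sinusoidal endothelial markers passed 2-fold toward the old array for 8 of 10 genes (median 5.70), with a summed signal of 210480 against 28831. On the young array 5 of them lay below the floor, Mrc1, Clec1b, Oit3, Gata4 and Dnase1l3. Within 2-fold were Stab1 (15887 on the old array, 9881 on the young, log2 ratio 0.69) and Lyve1 (14902, 16120, log2 ratio -0.11), which lymphatic vessels also express. Hepatocyte markers passed 2-fold toward the old array for 10 of 10 genes (median 3.11), with a summed signal of 19797 against 485, and 9 of them, Alb among these, were below the floor on the young array. The hepatocyte median is therefore a lower bound, and with no filter it was 7.28, against 4.42 for the members.

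Pan-leukocyte markers passed 2-fold on the old side for 9 of 10 genes (median 3.16), with a summed signal of 15138 against 1927, and Ptprc was below the floor on the young array. Fibroblast markers were on that side for 7 of 9 measured genes (median 2.25; summed signal of 23183 against 411), pericyte and smooth muscle markers for 8 of 10 (median 2.18; 25006 against 490), and mesothelial markers for 6 of 6 (median 4.86; 12305 against 139). On the young array Col1a1, Col1a2 and Col3a1 of the fibroblast markers, Myh11 and Pdgfrb of the mural markers and Msln and Wt1 of the mesothelial markers were below the floor.

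Lymphatic markers went the other way, with 5 of 7 genes past 2-fold toward the young array and 0 toward the old array (median -5.23; summed signal of 35086 on the old array against 64662). Prox1 and Nts were below the floor on the old array. Bmp4, Fst and Tll1 lay on the same side as these lymphatic markers. Lung capillary markers had 3 of 8 measured genes on the old side and 2 on the young side (median -0.03), and Car4 was below the floor on both arrays. This median depended on the floor. With no filter it was 1.11, with 6 of 11 genes on the old side and 3 on the young side. At the 75th percentile floor it was 2.21 over 5 measured genes, with 3 on the old side and 1 on the young side. Of 10 lung epithelial markers 6, Sftpc and Nkx2-1 among them, were below the floor on both arrays. The part of any of these cell types in the ratios of the 10 members was not tested.

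**Figure D4:**
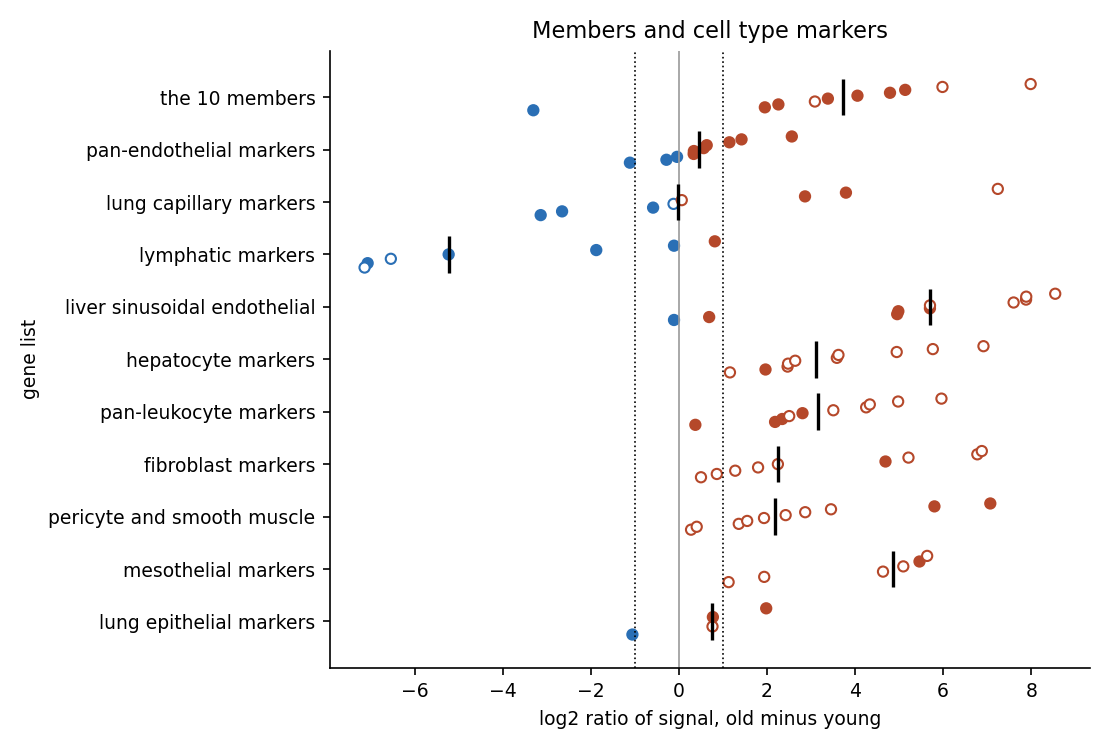
Log2 ratio (old minus young) of each measured gene in the members and in 10 lists of cell type markers, drawn with filled points for genes above the floor on both arrays, open points for lower bounds, black bars for medians and dotted lines at 2-fold. With this floor the medians of liver sinusoidal endothelial (5.70) and mesothelial markers (4.86) exceed that of the members (3.72), and the lymphatic markers have a median of -5.23. The order of medians that include lower bounds depends on the floor. With no filter the medians of hepatocyte (7.28), mesothelial (6.05) and liver sinusoidal endothelial markers (5.75) exceed that of the members (4.42).

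The direction of every member was kept under the 11 alternative settings of scaling, floor and probe set choice. Of 110 values, 10 members under 11 alternatives, 109 were 2-fold or more in the reported direction, the exception being Bmper with the higher floor. Sizes moved most for the genes with a young signal below the floor: the log2 ratio of Bmp2 ran from 5.26 to 11.69, that of Bmper from 0.36 to 4.86 and that of Id4 from 3.26 to 6.17. Among members above the floor on both arrays, the range was 3.33 to 4.87 for Bmp6, 2.71 to 4.14 for Smad7 and 4.08 to 5.21 for Smad6, with the lowest value of each at the 75th percentile floor. For Id1 the range was 1.50 to 2.03, for Id2 1.81 to 2.50, for Id3 2.93 to 3.39 and for Bmp4 -3.76 to -2.84. At the 75th percentile floor the lower signal of Bmp4, Bmp6, Smad6 and Smad7 was below the floor. The values of these genes under that setting are therefore lower bounds in size. Because all alternatives use the same 2 arrays, this range describes the processing and not the variation between mice.

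**Figure D5:**
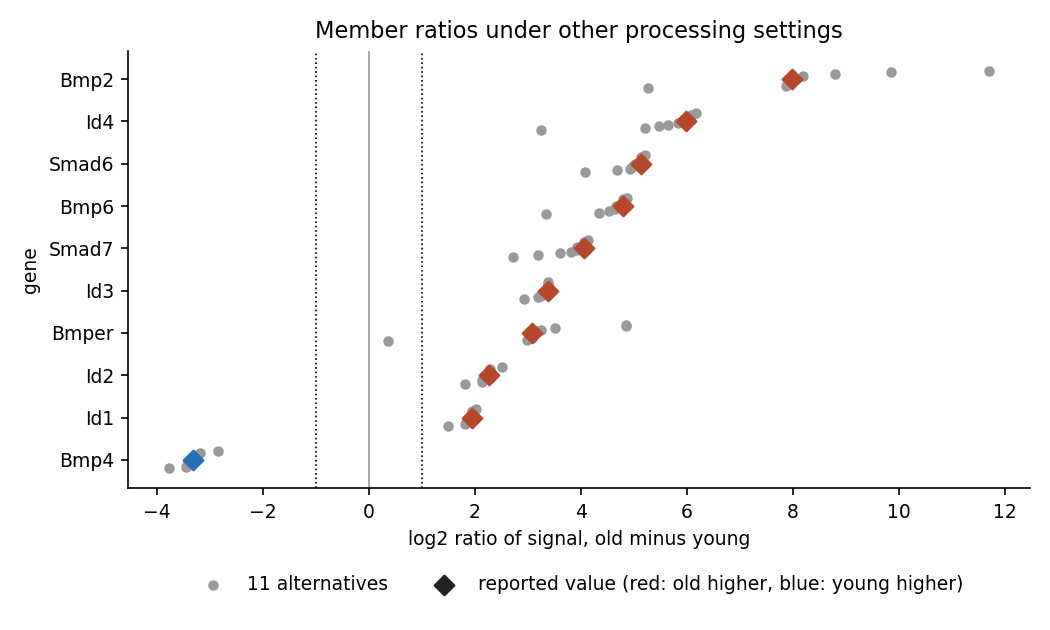
Log2 ratio (old minus young) of each member as reported (diamonds, red for old higher and blue for young higher) and under 11 alternative settings (grey points), with dotted lines at 2-fold. The points of Bmp2 spread widest, from 5.26 to 11.69, and those of Id1 stay between 1.50 and 2.03.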

How the data were processed

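The deposited values are MAS5 intensity on a linear scale, 1 value per probe set and array; GCOS 1.4 and MAS5 are named in the submitters' processing notes, and no genome build is given in the sources used here. With 2% trimmed from each tail, both arrays averaged 500.003. After leaving out 64 control probe sets, 45037 were compared. Names came from the platform annotation of 2016, and all 10 members matched RefSeq by Entrez identifier and symbol.

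Arrays were scaled by 1.05 (old) and 0.956 (young), which set the median log2 ratio of probe sets above both array medians from -0.13 to 0. The probe set of highest mean log2 signal stood for each gene, and all member probe sets are given. No test was possible with 1 array per group; genes were counted at 2-fold. The other pathway genes named are those past 2-fold and 7 named whatever their values; further genes were picked with their values in view. The members, lists and alternatives were chosen with earlier results of these data known. Alternatives were the deposited values, equal trimmed means, quantile normalization, loess (span 0.4), floors at the 25th and 75th percentiles, no filter, an offset of 0.5 of the floor, the mean over probe sets, and no _x_at or _s_at probe sets; scaling to the pan-endothelial markers was added after seeing the data. The scripts were tested on simulated data. Python 3.11.15, numpy 2.4.6, pandas 2.3.3, statsmodels 0.14.6 and matplotlib 3.10.9 were used.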

Additional observations from a re-analysis of the deposited data

How the results depend on the processing

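The count of members past 2-fold toward the old array was 9 under 10 alternatives and 8 with the floor at the 75th percentile, and the count on the young array was 1 under all 11. The median log2 ratio of the members, 3.72 as reported, was 4.42 with the floor at the 25th percentile and also with no filter, 2.98 with the floor at the 75th percentile and 3.29 with the mean over probe sets. Among the other pathway genes, 8 of 39 measured were higher on the old array as reported, and 16 of all 60 on the array with no filter. The count was 4 with the floor at the 75th percentile, where fewer genes were measured, and 5 with scaling to the pan-endothelial markers. The share of all measured genes on that side was 16% as reported, 23.6% with no filter and 12.5% with the floor at the 75th percentile. With scaling to the pan-endothelial markers the median of the other pathway genes was -0.0699, a reversed sign. That scaling also moved the median log2 ratio of all measured genes to -0.39 from 0.03 and the shares past 2-fold from 16% (old side) and 11.3% (young side) to 11.7% and 21.2%. With the deposited values that median was -0.09 and the split 14.5% and 13.3%. Bmp2, Bmper and Id4 have lower bounds that depend on the floor by construction, and with the floor at the 75th percentile so do Bmp4, Bmp6, Smad6 and Smad7. No paired analysis was possible because each group has 1 array, and no array could be left out for the same reason.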

Other observations

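Genes next to the pathway were looked at after the values of the members had been seen, and are given as values. Fst, which binds activins, was on the young side, whereas the activin subunit genes lay on the old side: Inhbb gave 5420 on the old array and 433 on the young array, a 12.5-fold difference, and Inhba gave 404 against 98.0, or 4.13-fold. The related subunit gene Inha was level, with a log2 ratio of -0.03, and Gdf11 was below the floor on both arrays.

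Of 12 further basic helix-loop-helix factor genes, the family that Id proteins resemble, 7 were measured, with 3 on the old side by 2-fold or more and 1 on the young side. Hes1, a Notch target, gave 4000.4 on the old array and 987 on the young array, a 4.05-fold difference. Twist1, a mesenchymal factor, gave 629 against 14.3, an excess on the old array of at least 8.54-fold, and that of Hand2 was at least 4.66-fold. The log2 ratio of Twist1 was at least 0.37 with the floor at the 75th percentile and 5.46 with no filter. Lyl1, a blood and endothelial factor, was 3.74-fold higher on the young array (428 against 1599), and its relative Tal1 was level (log2 ratio 0.16). Fibroblast and pericyte markers were higher on the old array as described above, and their part in the Twist1 and Hand2 values was not tested.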
